A study of Caenorhabditis elegans with 20 samples.

Results

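The response of Caenorhabditis elegans mutant for nhr-131 to the compound F17 was followed across all genes. The members are 10 of the 20 RNA-sequencing libraries of the series, those whose column names carry the mutant's name: 5 from animals given F17 and 5 from animals given the solvent DMSO. The mutants were exposed at the L4 larval stage, in liquid culture, to 2.5 µM F17 or to 0.1% DMSO for 4 h. For the F17 animals no DMSO percentage is given. RNA came from whole animals. The labels give the genotype only as nhr131 and name no allele or strain. F17 is known here only by its code, so nothing is said of its structure. Wild-type animals with F17 and wild-type animals with DMSO, 5 libraries each, treated the same way and named N2 in the columns, serve for 1 comparison near the end. The files hold raw, whole read counts for each gene. The p-values measure the spread between libraries that the labels describe as independent biological replicates.

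Animals clear foreign small molecules in stages. Enzymes of phase I, chiefly cytochrome P450s, dehydrogenases and esterases, add or expose a reactive group on the molecule. Phase II enzymes, among them UDP-glucuronosyltransferases and glutathione S-transferases, then attach a sugar or glutathione, and transporters of phase III move the product out of the cell. In C. elegans the intestine is a main site of this work, and members of the nuclear hormone receptor family, which is much enlarged in nematodes, are known to control such genes. nhr-131 belongs to that family.

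The nhr-131 transcript had 0, 2, 4, 4 and 4 counts in the 5 mutant libraries with F17 (a to e) and 0, 1, 3, 4 and 3 counts in the 5 with DMSO, against 77 to 196 counts in each of the 10 wild-type libraries. The genotypes did not overlap (two-sided permutation test with 100000 resamples, p = 3e-05). In the mutants the gene was too low to be tested for an effect of F17. Markers of intestine, hypodermis, body wall muscle, neurons, pharynx, germline and sperm were detected. For pharynx 11 of 14 and for sperm 6 of 7 were high enough to be tested, and for the other tissues all were.

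Total counts ran from 15836593 to 26908383 in the F17 libraries and from 12836432 to 23618692 in the DMSO libraries, so that 3 counts equal 0.108 to 0.173 CPM with F17 and 0.116 to 0.275 CPM with DMSO (CPM are TMM-scaled counts relative to library size). Library c of each treatment stood apart from its group. An age score that rests on expression alone was the mean z-score over 11 genes that rise between the L4 stage and the adult. These 11 genes were a substitute list chosen after the data were seen. The score was -0.859 in library c with F17 and -1.22 in library c with DMSO, the lowest of each group. By Dixon's test, described further below, no library stood apart in this score. The 6 vitellogenin genes, which encode yolk proteins, summed to 15.7 CPM in library c with F17 and 11.5 CPM in library c with DMSO, against 1192 to 3783 CPM in the other F17 libraries and 999 to 1976 CPM in the other DMSO libraries. Library c also had the smallest share of ribosomal RNA in each treatment (2.24% with F17, 3.75% with DMSO). With DMSO library d was close to it at 3.92%, so there this share did not set library c apart. The treatments did not differ detectably in the age score, 0.211 ± 0.627 with F17 and -0.211 ± 0.784 with DMSO (SD, n = 5; exact two-sided permutation test, p = 0.373), or in the share of ribosomal RNA, 10.9% ± 7.63 with F17 and 12.3% ± 10.3 with DMSO (p = 0.802, same exact test).

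F17 raised 57 genes in the mutants, most of them genes of xenobiotic metabolism, and lowered none by the test used. The test was edgeR's quasi-likelihood F-test on the 10 libraries with Benjamini-Hochberg adjustment over 12605 genes, and a gene is called here when its adjusted p is under 0.05. The called genes are 0.452% of the genes tested for a rise and 0% for a fall. At unadjusted p under 0.05 there were 319 genes, 189 higher and 130 lower, and the median log2 fold change of all genes tested was -0.0082. Each of the 57 genes had its lowest F17 library above its highest DMSO library, an order that 96 genes, or 0.762% of those tested, showed in all, and 23 genes showed the reverse order. The 57 log2 fold changes ran from 0.62 to 7.96 with a median of 2.67: 12 were at least 5, 14 between 3 and 5, 12 between 2 and 3, 13 between 1 and 2, and 6 under 1. Together the 57 genes took 7960 to 10260.0 CPM in the F17 libraries and 1370.0 to 1686 CPM in the DMSO libraries. Library c had the lowest sum in each treatment. The genes were called on these same libraries, so the gap in the sum follows from the choice and is not separate evidence. In whole animals a higher level per cell and more cells of an expressing type cannot be told apart.

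**Figure D1:**
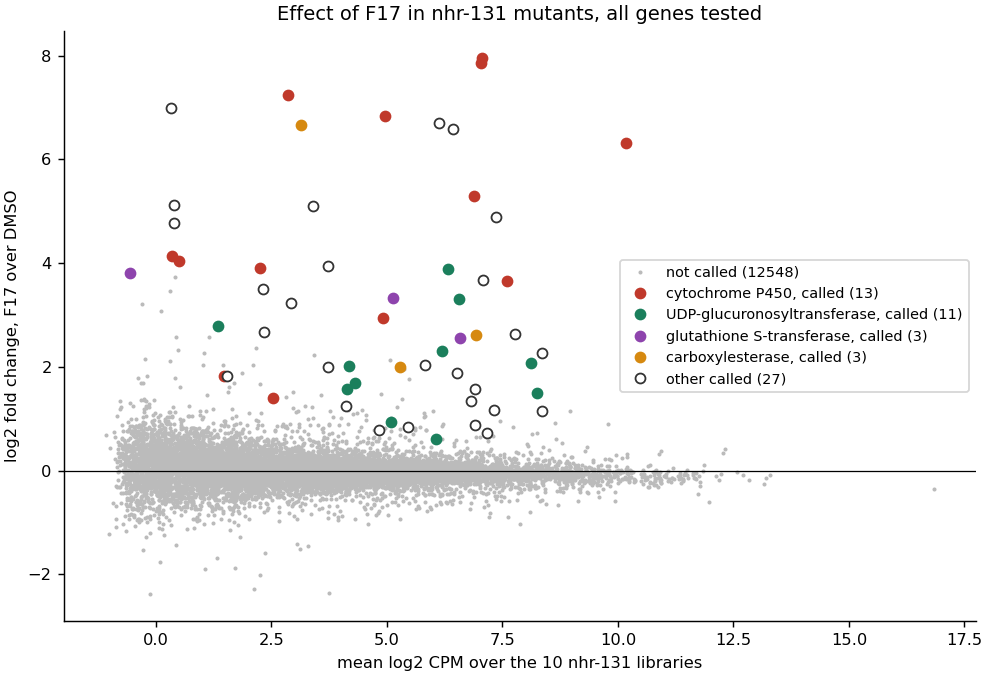
Effect of F17 in nhr-131 mutants for the 12605 genes tested: mean log2 CPM over the 10 libraries (x) and log2 fold change, F17 over DMSO (y). Coloured points are the 57 called genes by family, open circles the called genes outside these 4 families, and small grey points the genes not called; all called points lie above 0, between 0.62 and 7.96.

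Cytochrome P450 genes held the largest changes. These heme enzymes oxidise drugs, toxins and lipids. The counts cover 80 P450 genes. Of these 55 passed the filter on low counts, 13 rose, 0 fell and 42 did not pass the test, with 21 at unadjusted p under 0.05. The median log2 fold change of the 55 was 0.50, against -0.0082 over all genes, and in 17 of them all F17 libraries lay above all DMSO libraries. Over all 12605 genes tested 57 were called higher, 319 were at unadjusted p under 0.05 and 96 showed that order. The 13 called genes summed to 2975 to 4159 CPM with F17 and 72.3 to 85.7 CPM with DMSO, a ratio of the means of 45.6. The 42 others summed to 442 to 554 CPM with F17 and 350.4 to 494 CPM with DMSO, which overlap. Called and uncalled genes were split by the test on these same libraries, so the contrast of the sums follows from the choice.

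cyp-13A6 had 277, 236, 388, 217 and 205 CPM with F17, against 1.28, 1.52, 0.92, 1.12 and 0.462 CPM with DMSO in libraries a to e (log2 fold change 7.96, SE 0.33, adjusted p = 1.57e-07). With F17 library c was the highest, and all 5 stood far above the DMSO libraries. Its subfamily did not move as one: cyp-13A6 was the 1 of 8 tested cyp-13A genes to be called, and the median over the 8 was 0.83. cyp-14A4, the 1 called gene of 4 tested cyp-14A genes, had 299, 284, 151, 283 and 287 CPM with F17, against 1.19, 1.06, 0.752, 1.43 and 1.16 CPM with DMSO (log2 fold change 7.86, SE 0.28, adjusted p = 3.41e-08). Both c libraries were low, and the groups were still far apart. cyp-35C1 had 2622, 2454, 1981, 2378 and 1909 CPM with F17, against 25, 26.6, 41.1, 23.98 and 25.1 CPM with DMSO (log2 fold change 6.32, SE 0.23, adjusted p = 3.41e-08). It was already expressed with DMSO, where library c was the highest, and no F17 library came near that level. It is the single cyp-35C gene of the table.

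The 5 genes of the cyp-35A subfamily, which in C. elegans are known to be induced by many foreign compounds, all rose. cyp-35A4 had 14.9, 15.9, 13.4, 13.6 and 13.02 CPM with F17, against 0, 0, 0.293, 0 and 0.077 CPM with DMSO (log2 fold change 7.24, SE 0.62, adjusted p = 8.88e-05). It was nearly silent with DMSO, where 3 of 5 libraries held 0 counts, and the DMSO total was 8 counts against 1491 with F17. Without library c with DMSO, which held most of those 8 counts, its log2 fold change was 9.31. cyp-35A3 had 78.3, 63.2, 37.96, 68.2 and 61.2 CPM with F17, against 0.549, 0.132, 0.836, 0.735 and 0.231 CPM with DMSO (log2 fold change 6.84, SE 0.39, adjusted p = 2.88e-06). With F17 library c was lowest, with DMSO it was highest, and the groups were far apart. cyp-35A5 had 289, 278, 148, 231 and 201 CPM with F17, against 5.86, 3.77, 4.31, 9.40 and 5.85 CPM with DMSO (log2 fold change 5.29, SE 0.30, adjusted p = 2.88e-06). The lowest F17 library, c, was still well above the highest DMSO library, d. cyp-35A2 had 495, 399.8, 155, 412 and 338 CPM with F17, against 30.1, 32.5, 19.1, 33.4 and 27.9 CPM with DMSO (log2 fold change 3.65, SE 0.30, adjusted p = 6.67e-05). Both c libraries were the lowest of their group, and the groups did not overlap. cyp-35A1, at 2.16 ± 0.519 CPM with F17 and 0.121 ± 0.161 CPM with DMSO, was close to the detection limit (10 counts with DMSO in all, 227 with F17; log2 fold change 4.14, SE 0.71, adjusted p = 0.0252). Its log2 fold change was 4.98 without library e with DMSO, and its call was lost under 8 of 19 alternatives. Reads that fit several close paralogs may have been dropped or given to any of them, because no source used here says how such reads were counted, and the level of a single cyp-35A gene is uncertain.

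cyp-35B2 had 8.42, 8.78, 9.19, 8.61 and 8.68 CPM with F17, against 0.641, 0.661, 0.585, 0.735 and 0.231 CPM with DMSO (log2 fold change 3.90, SE 0.27, adjusted p = 1.27e-05). The 5 F17 libraries were close to each other and all above the DMSO libraries, of which e was the lowest. cyp-34A9 had 56.1, 47.5, 77.7, 50.2 and 33.1 CPM with F17, against 7.14, 8.197, 2.13, 10.4 and 6.70 CPM with DMSO (log2 fold change 2.94, SE 0.37, adjusted p = 0.00279). Library c was the highest with F17 and the lowest with DMSO, and the groups did not overlap. Of the cyp-33 genes 3 also rose: cyp-33C2 by 4.05 (SE 0.52, adjusted p = 0.00279), cyp-33E3 by 1.82 (SE 0.30, adjusted p = 0.0223) and cyp-33C4 by 1.40 (SE 0.21, adjusted p = 0.0108). cyp-35D1, the 1 tested cyp-35D gene, named after its value was seen, had the lowest estimate of the family and was not called (-1.06, adjusted p = 0.9999). With the age score as a covariate cyp-35D1 was called lower.

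**Figure D2:**
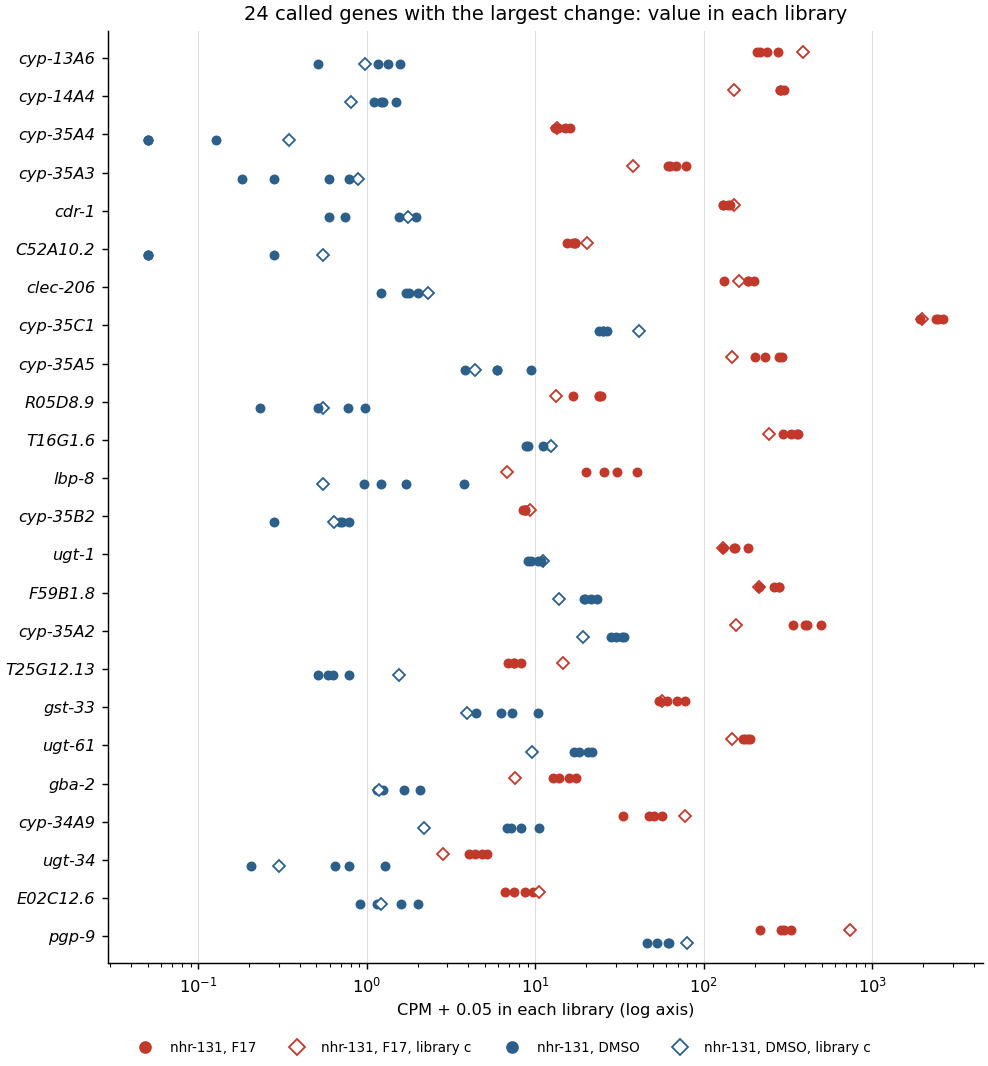
CPM of the 24 called genes with the largest log2 fold change and a mean log2 CPM of at least 1, 1 point per library, plotted as CPM + 0.05 on a log axis. Red points are nhr-131 with F17, blue points nhr-131 with DMSO, and open diamonds are library c of each; in each gene all red points lie to the right of all blue ones.

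Other phase I enzymes rose in small numbers. Carboxylesterases split esters of drugs and lipids, and 3 of 31 tested were called (57 of 12605 over all genes), with a list median of 0.19. C52A10.2, now named cest-35.2, had 17.1, 16.6, 20.1, 17.2 and 15.3 CPM with F17, against 0, 0, 0.502, 0 and 0.231 CPM with DMSO (log2 fold change 6.67, SE 0.69, adjusted p = 0.000491). It held 0 counts in 3 DMSO libraries, and without library c with DMSO its log2 fold change was 8.31. F13H6.3, now cest-33, averaged 209.8 ± 28.8 CPM with F17 and 34.1 ± 3.53 CPM with DMSO (SD, n = 5; log2 fold change 2.62, SE 0.13, adjusted p = 6.54e-07). B0238.1, now cest-35.1, averaged 62.4 ± 14 CPM with F17 and 15.6 ± 3.35 CPM with DMSO (log2 fold change 2.0, SE 0.20, adjusted p = 0.000455). Of 28 tested short-chain dehydrogenases, which oxidise or reduce alcohols and ketones, dhs-23 alone was called, at 1.82 (SE 0.27, adjusted p = 0.00927), and the list median was 0.065. For 14 aldehyde and alcohol dehydrogenase genes and 5 flavin monooxygenase genes edgeR made 0 calls, and 2 and 1 of them were at unadjusted p under 0.05. In both lists DESeq2 and limma-voom also called 0 genes.

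The family with the second most calls was that of sugar conjugation. Of 55 tested UDP-glucuronosyltransferase genes, whose enzymes attach sugars to small molecules, 11 rose, 0 fell and 44 did not pass, with 18 at unadjusted p under 0.05. The list median was 0.37, 44 of the 55 estimates were above 0, and in 15 genes all F17 libraries lay above all DMSO libraries. Over all 12605 genes tested 57 rose, 319 were at unadjusted p under 0.05, 6054 estimates were above 0 and 96 showed that order. The 11 called genes summed to 1366 to 1721 CPM with F17 and 367 to 464 CPM with DMSO, a ratio of the means of 3.71. This ratio too rests on genes chosen by the test on the same libraries. ugt-1 had 182, 154, 130.5, 151 and 129 CPM with F17, against 9.34, 10.3, 11.04, 9.05 and 10.7 CPM with DMSO (log2 fold change 3.89, SE 0.13, adjusted p = 3.41e-08). The spread within each treatment was small beside the gap between them. ugt-61 had 175, 171, 147, 182 and 187 CPM with F17, against 21.7, 20.4, 9.53, 18.2 and 16.9 CPM with DMSO (log2 fold change 3.32, SE 0.21, adjusted p = 5.86e-06). Library c was the lowest in both treatments. ugt-34 had 5.13, 3.98, 2.79, 4.81 and 4.34 CPM with F17, against 0.733, 0.595, 0.251, 1.24 and 0.154 CPM with DMSO (log2 fold change 2.79, SE 0.48, adjusted p = 0.0266). It was low in all 10 libraries, the groups did not overlap, and its call was lost under 6 of 20 alternatives. The others were ugt-16 at 2.31, ugt-22 at 2.07, ugt-33 at 2.01, ugt-41 at 1.68, ugt-8 at 1.57, ugt-62 at 1.503, ugt-21 at 0.94 and ugt-12 at 0.62 on the log2 scale, with adjusted p from 1.27e-05 for ugt-33 to 0.0232 for ugt-12. ugt-22 overlaps exons of srz-29 on the opposite strand. The library kit keeps the strand, but whether counting used it is not given, so reads of such pairs cannot be told apart.

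Of 35 tested glutathione S-transferase genes, which couple glutathione to electrophiles, 3 rose and 32 did not pass, with a median of 0.15. Over all genes tested 57 of 12605 rose. gst-33 had 69.2, 77.1, 56.5, 54.3 and 60.8 CPM with F17, against 10.3, 7.21, 3.89, 6.23 and 4.39 CPM with DMSO (log2 fold change 3.32, SE 0.26, adjusted p = 3.97e-05). The groups were far apart, and library a was the highest with DMSO. gst-5 averaged 163 ± 35.3 CPM with F17 and 27.8 ± 3.46 CPM with DMSO (SD, n = 5; log2 fold change 2.55, SE 0.17, adjusted p = 1.08e-05), and it overlaps exons of nos-1 on the opposite strand. It was also the 1 called gene of 23 on the list of targets of the stress factor SKN-1 and antioxidant enzymes, whose median was -0.024. gst-8 was barely detected, with 107 counts with F17 and 6 counts with DMSO in all (log2 fold change 3.81, SE 0.65, adjusted p = 0.0252), a ratio of 15.2 with a 95% exact interval of 6.76 to 42.3 that covers counting error only. Its call was lost under 8 of 19 alternatives. Among 46 tested ABC transporter genes, the export pumps of phase III, the P-glycoprotein gene pgp-9 alone was called. It had 217, 286, 740.3, 298 and 328 CPM with F17, against 52.4, 61.1, 79.4, 46.1 and 62.3 CPM with DMSO (log2 fold change 2.63, SE 0.33, adjusted p = 0.00223). Library c with F17 was far above the other F17 libraries, which were themselves above all DMSO libraries, and without both c libraries the log2 fold change was 2.34. The ABC list had a median of 0.09.

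Large changes outside these families included those of cdr-1, clec-206, lbp-8 and gba-2. cdr-1, a cadmium-responsive gene related to glutathione S-transferases, had 139.9, 129.6, 151, 143 and 129.5 CPM with F17, against 0.549, 1.92, 1.71, 1.51 and 0.693 CPM with DMSO (log2 fold change 6.70, SE 0.30, adjusted p = 3.09e-07). Its 5 F17 libraries were close to each other, and it was the 1 called gene of 11 on the metal response list, whose median was 0.14. clec-206, which encodes a C-type lectin, had 184, 198, 162, 182 and 132 CPM with F17, against 1.74, 1.65, 2.26, 1.97 and 1.16 CPM with DMSO (log2 fold change 6.58, SE 0.21, adjusted p = 3.41e-08). The lowest F17 library was e and the groups were far apart, while the other 85 tested C-type lectin genes were not called (list median -0.038). lbp-8, a fatty acid-binding protein of the lysosome, had 40.2, 30.4, 6.69, 25.4 and 19.8 CPM with F17, against 0.916, 3.702, 0.502, 1.66 and 1.16 CPM with DMSO (log2 fold change 3.95, SE 0.59, adjusted p = 0.00927). Library c with F17 was the lowest of its group and came close to library b with DMSO. That call was lost with no filter on low counts and with limma-voom (highest adjusted p = 0.113), and lbp-8 was the 1 called gene of 9 lipid-binding protein genes. gba-2, which encodes a glucocerebrosidase, had 12.7, 17.3, 7.52, 15.8 and 13.8 CPM with F17, against 1.10, 1.19, 1.13, 2.01 and 1.62 CPM with DMSO (log2 fold change 3.24, SE 0.28, adjusted p = 8.88e-05). Library c was the low one with F17, well above every DMSO library. gba-2 overlaps exons of gba-1 on the opposite strand.

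A further 5 called genes with known relatives rose less. swt-7, of the SWEET family of sugar transporters, averaged 143 ± 12.7 CPM with F17 and 38.7 ± 4.45 CPM with DMSO (SD, n = 5; log2 fold change 1.89, SE 0.11, adjusted p = 3.22e-06). vem-1, related to membrane-associated progesterone receptors, averaged 163 ± 24.2 CPM with F17 and 64.2 ± 19.5 CPM with DMSO (log2 fold change 1.34, SE 0.20, adjusted p = 0.00927). apy-1, which encodes an apyrase, averaged 451 ± 76.0 CPM with F17 and 205 ± 44.8 CPM with DMSO (log2 fold change 1.14, SE 0.18, adjusted p = 0.0115), and its exons overlap those of vps-52 on the opposite strand. In all 3 genes the groups did not overlap. F08G5.6 (irg-4), known to respond to bacterial infection, averaged 155 ± 10.24 CPM with F17 and 84.1 ± 15.1 CPM with DMSO (log2 fold change 0.88, SE 0.13, adjusted p = 0.00879) and was the 1 called gene of 17 on the list of infection response and CUB-like genes, whose median was -0.12. nstp-2, of the nucleotide sugar transporter family, averaged 178 ± 12.79 CPM with F17 and 108 ± 18.9 CPM with DMSO (log2 fold change 0.72, SE 0.13, adjusted p = 0.0321).

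A further set of called genes is on none of the lists used, which does not say that their roles are unknown. In all 21 of the 57 were on none of the 43 lists, among them gba-2, swt-7, vem-1, apy-1 and nstp-2 above. R05D8.9, now named cror-2, had 23.9, 24.3, 13.2, 23.8 and 16.7 CPM with F17, against 0.183, 0.727, 0.502, 0.928 and 0.462 CPM with DMSO (log2 fold change 5.10, SE 0.35, adjusted p = 1.25e-05). Library c was the lowest with F17, and the groups did not overlap. T16G1.6 had 365, 329, 243, 355 and 294 CPM with F17, against 8.70, 12.2, 12.3, 11.06 and 9.01 CPM with DMSO (log2 fold change 4.89, SE 0.17, adjusted p = 3.41e-08). Its neighbours T16G1.7 and T16G1.4 rose too, by 2.03 and 1.99. F59B1.8 had 279, 260.0, 214, 281 and 214 CPM with F17, against 21.3, 23.3, 13.8, 19.6 and 19.3 CPM with DMSO (log2 fold change 3.68, SE 0.17, adjusted p = 3.09e-07). Libraries c and e were the lower ones with F17, and every DMSO library was far below them. T25G12.13 had 6.87, 8.21, 14.6, 7.38 and 7.42 CPM with F17, against 0.733, 0.463, 1.505, 0.58 and 0.539 CPM with DMSO (log2 fold change 3.50, SE 0.38, adjusted p = 0.000682). Both c libraries were the highest of their group. E02C12.6 had 8.65, 9.64, 10.5, 6.57 and 7.42 CPM with F17, against 1.10, 0.859, 1.17, 1.97 and 1.54 CPM with DMSO (log2 fold change 2.67, SE 0.26, adjusted p = 0.000319). The groups were apart but both low, as in E02C12.10, which had 228 counts with F17 and 7 counts with DMSO in all (log2 fold change 4.78, SE 0.79, adjusted p = 0.0214).

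F46B3.1 is among the remaining genes on none of the lists. It had 241 counts with F17 and 1 count with DMSO in all, a ratio of 205 with a 95% exact interval of 36.5 to 8146 for counting error (log2 fold change 6.998, SE 0.83, adjusted p = 0.00146). Its log2 fold change was 8.37 without library d with DMSO, which held the 1 count. K12D9.1 had 5 counts with DMSO in all and a ratio of 40.6 (95% exact interval 17.1 to 126; log2 fold change 5.13, SE 0.68, adjusted p = 0.00377), and its log2 fold change was 6.15 without library e with DMSO. Fitted values of such genes depend on the small count that the model adds. W01A11.1 averaged 545 ± 199 CPM with F17 and 113 ± 25.9 CPM with DMSO (SD, n = 5; log2 fold change 2.27, SE 0.32, adjusted p = 0.00641), with library c the lowest in both treatments, and it overlaps moc-2 on the opposite strand. F58B4.5 rose by 1.57 (SE 0.16, adjusted p = 0.000491), C29F7.1 by 1.25 (SE 0.19, adjusted p = 0.00968), C29F7.2 by 1.16 (SE 0.10, adjusted p = 8.54e-05), F16F9.4 by 0.85 (SE 0.12, adjusted p = 0.00882) and C53B4.3 by 0.78 (SE 0.14, adjusted p = 0.0445). C29F7.2 averaged 219 ± 22.4 CPM with F17 and 97.9 ± 2.77 CPM with DMSO (SD, n = 5), so the DMSO libraries differed little among themselves.

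The calls were not all equally stable. Calls of 46 of the 57 genes held under every alternative in which the gene was tested. Among these F46B3.1, cyp-33C2 and K12D9.1 were tested under 19 alternatives and the others under 20. The other 11 calls were lost under at least 1 alternative: lbp-8, apy-1, ugt-8, E02C12.10, cyp-33E3, ugt-12, gst-8, cyp-35A1, ugt-34, nstp-2 and C53B4.3. Their highest adjusted p under any alternative ran from 0.0591 for apy-1 to 0.178 for C53B4.3, and most of the losses came from leaving out single libraries. In none of the 57 did the direction turn. In the F17 group library c was the lowest of the 5 for 28 of the 57 genes and the highest for 13, so it was not low throughout.

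**Figure D3:**
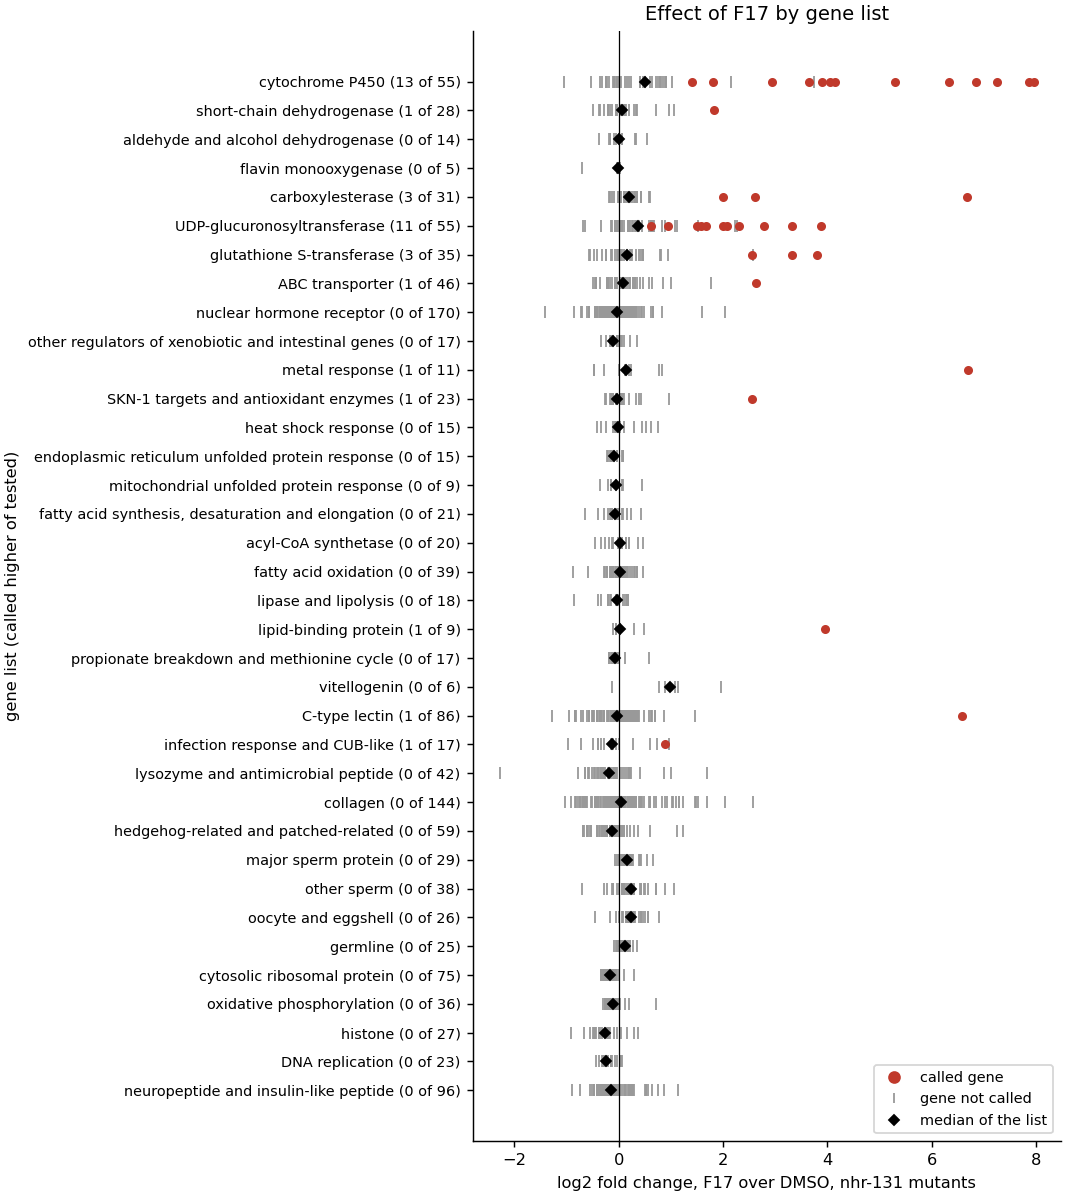
Log2 fold change, F17 over DMSO, of every tested gene on the 36 lists that are not tissue markers (x), 1 line per list, with the number called higher of the number tested in the label. Red points are called genes, grey ticks genes not called and black diamonds list medians; the P450 and UDP-glucuronosyltransferase lists hold the most called genes, 13 and 11.

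The lists of regulator genes held no gene called by edgeR, and whether their members control the called genes was not tested. Of 170 tested nuclear hormone receptor genes edgeR called 0, and 11 had an unadjusted p under 0.05, against 319 of 12605 over all genes. The list median was -0.024. DESeq2 called nhr-106, nhr-112 and nhr-142 higher and nhr-6 lower, and limma-voom called 0. nhr-97 averaged 119.9 ± 33.3 CPM with F17 and 128 ± 19.4 CPM with DMSO (SD, n = 5). For nhr-114 the averages were 336 ± 112 CPM with F17 and 313 ± 104 CPM with DMSO, and both genes had adjusted p = 0.9999. The 17 other regulators of xenobiotic and intestinal genes gave 0 calls with each of these tools and 0 at unadjusted p under 0.05 in edgeR. The bZIP factor gene zip-2 averaged 483 ± 92.3 CPM with F17 and 545 ± 99.7 CPM with DMSO. The hypoxia factor gene hif-1 averaged 345 ± 50.2 CPM with F17 and 383 ± 75.8 CPM with DMSO, and both were at adjusted p = 0.9999.

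Heat shock and unfolded protein response genes did not move detectably. In the lists of the heat shock response (15 tested), of the endoplasmic reticulum unfolded protein response (15) and of the mitochondrial unfolded protein response (9), each of the 3 tools, edgeR, DESeq2 and limma-voom, called 0 genes, and edgeR put 0 at unadjusted p under 0.05. Their medians were -0.0053, -0.096 and -0.061. hsp-1, which encodes a cytosolic chaperone, averaged 3085 ± 402 CPM with F17 and 3205 ± 320.1 CPM with DMSO. daf-21, which encodes another, averaged 1426 ± 279 CPM with F17 and 1483 ± 211 CPM with DMSO. Of the mitochondrial chaperone genes, hsp-60 averaged 657 ± 78.5 CPM with F17 and 759.7 ± 155 CPM with DMSO. None of these 3 passed the test (adjusted p = 0.9999).

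Lipid and energy genes outside lbp-8 gave no call either. All of edgeR, DESeq2 and limma-voom called 0 genes among 21 genes that make, desaturate or elongate fatty acids, 20 acyl-CoA synthetase genes, 39 genes of fatty acid oxidation, 18 lipase and lipolysis genes, 17 genes of propionate breakdown and the methionine cycle, and 6 vitellogenin genes. At unadjusted p under 0.05 there were 0, 0, 2, 1, 0 and 0 in these lists. The desaturase gene fat-2 averaged 781 ± 175 CPM with F17 and 788 ± 227 CPM with DMSO, and the desaturase gene fat-6 averaged 987 ± 335 CPM with F17 and 994 ± 384 CPM with DMSO. acdh-1, a gene of the propionate shunt, averaged 3863 ± 1214 CPM with F17 and 3567 ± 759 CPM with DMSO. None of the 3 passed the test (adjusted p = 0.9999). The vitellogenin list had a median of 0.98, and its sums by library overlapped widely, from 15.7 to 3783 CPM with F17 and from 11.5 to 1976 CPM with DMSO. vit-6 averaged 1156 ± 875 CPM with F17 and 622 ± 409 CPM with DMSO (adjusted p = 0.9999), with library c the lowest in each treatment.

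The remaining lists also held 0 called genes by edgeR. They were 144 collagens (4 at unadjusted p under 0.05), 59 hedgehog-related and patched-related genes (1), 42 lysozyme and antimicrobial peptide genes (3), 29 major sperm protein genes (0), 38 other sperm genes (0), 26 oocyte and eggshell genes (1), 25 germline genes (0), 75 cytosolic ribosomal protein genes (0), 36 genes of oxidative phosphorylation (0), 27 histones (1), 23 DNA replication genes (0) and 96 neuropeptide genes (2). DESeq2 called 1 of them, the collagen gene col-119, higher, and limma-voom called 0. Their medians lay between -0.27 for histones and 0.24 for oocyte genes. Over all genes tested 319 of 12605 were at unadjusted p under 0.05. Of the 70 marker genes tested for 7 tissues 0 were called by any of the 3 tools and 0 were at unadjusted p under 0.05. The intestinal markers summed to 9839 to 18640.0 CPM with F17 and 10150.0 to 23010.0 CPM with DMSO, and the germline markers to 166 to 773 CPM with F17 and 112 to 565 CPM with DMSO, so both overlapped. Library c was the highest in the germline sum in both treatments.

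The absence of lower calls in edgeR's test depended on the libraries and on the model. With all libraries kept, an age covariate gave 1 lower call (cyp-35D1) and the model of all 20 libraries gave 1 (lem-3). The library letter as a replicate block gave 5. Without both c libraries 104 genes were called, 87 higher and 17 lower, and these include all 57. Library c of each treatment was singled out by the variation within groups, so leaving both out lowers the spread by construction, and the genes below were chosen after their values were seen. Among the 17 were the lysozyme gene lys-3 at -2.29 (SE 0.24, adjusted p = 0.000288), the receptor gene nhr-6 at -1.69 (SE 0.33, adjusted p = 0.0388), lem-3 at -1.20 (SE 0.15, adjusted p = 0.00111), the bZIP gene zip-10 at -0.99 (SE 0.19, adjusted p = 0.0353) and cth-1, of the cystathionine gamma-lyase family, at -0.74 (SE 0.13, adjusted p = 0.0136). lys-3 averaged 1.70 ± 0.199 CPM with F17 and 8.32 ± 2.22 CPM with DMSO in the 8 libraries (SD, n = 4). With all 10 libraries and no block these 5 had adjusted p of 0.9999, 0.324, 0.159, 0.324 and 0.0746 in the same order. With all 10 and the letter as a block edgeR called lys-3 lower (-2.24, adjusted p = 0.00284). The letters pair the treatments only by name. Deviations from the group means correlated at 0.799 for letter c and at -0.154 to 0.243 for the others, so the lys-3 call rests on the model chosen. Leaving out library c with DMSO alone gave 5 lower genes (F53A9.2, T24C4.4, W09G12.7, lem-3 and srr-6), and leaving out library c with F17 alone gave 2 (F44G3.2 and cth-1). DESeq2 with all 10 libraries called 9 lower genes and limma-voom 0.

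The 30 genes added on the higher side without both c libraries had 13 that are on a list and 17 on none. On the lists that already had calls were cyp-13A7 at 3.73, cyp-33C1 with 0 counts in the 4 DMSO libraries, ugt-9 at 2.45, ugt-28 at 1.11, ugt-2 at 1.01, dhs-14 at 1.07, clec-56 at 0.73 and F35E12.5 at 0.88. The export pump genes pgp-14 at 1.91, pgp-1 at 0.79 and mrp-3 at 0.65 were among them too. On lists without a call were alh-5 at 0.55 and nhr-106 at 0.80. far-3, which encodes a fatty acid- and retinol-binding protein, averaged 61.5 ± 7.57 CPM with F17 and 14.2 ± 2.63 CPM with DMSO over these libraries (SD, n = 4). Its log2 fold change there was 2.11 (SE 0.15, adjusted p = 6.64e-06). With all 10 libraries far-3 had an adjusted p of 0.579.

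The called genes were not spread evenly over the genome. By the RefSeq gene table of assembly WBcel235, used here only for names, chromosomes and gene order, chromosome V held 39 of the 57 (68.4%), against 19.2% of the 12350 tested genes that could be placed. Chromosome X held 7, IV held 6, II held 4, III held 1 and I held 0. Of the called genes 6 (10.5%) lay directly beside another called gene, against 0.509% of all tested genes placed in the order of protein-coding genes. In 8 runs, called genes lay within 5 places of each other, and these runs held 17 of the 57. They were cyp-35A5 with cyp-35B2, cyp-35A3 with cyp-35A4, cyp-35A1 with cyp-35A2, lbp-8 with cyp-35C1, C52A10.2 with B0238.1, E02C12.6 with E02C12.10, T16G1.7 with T16G1.6 and T16G1.4, and C29F7.1 with C29F7.2. All but the last, on X, are on chromosome V. Families of this kind often stand in tandem in the C. elegans genome. Of the 57 genes 9 overlap exons of a protein-coding gene on the opposite strand.

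**Figure D4:**
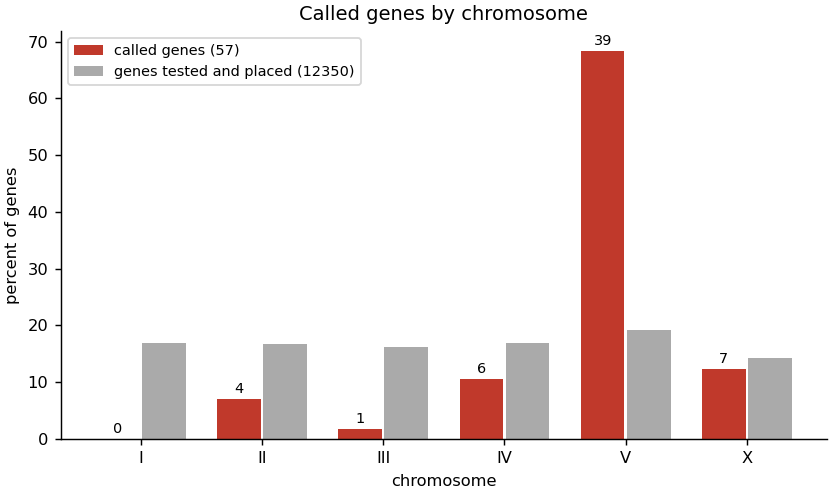
Percent of genes on each chromosome, for the 57 called genes (red, with their number above the bar) and for the 12350 tested genes that could be placed (grey). Chromosome V holds 68.4% of the called genes and 19.2% of the tested genes.

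Most of the 57 genes responded in wild type as well. In a model of all 20 libraries 52 of the 57 were also called higher in wild-type animals, and all 57 wild-type estimates were above 0. The 5 that did not pass there were F46B3.1, ugt-34, E02C12.6, cyp-33C4 and F08G5.6. Over all 13795 genes of that model 106 were called higher in wild type and 22 lower. The difference of the F17 effect between genotypes was tested itself over 13795 genes, and 34 (0.246%) were called, 30 with a difference (nhr-131 minus wild type) below 0 and 4 with a difference above 0. The count was 19 to 31 when single libraries were left out, and under 23 without library b or e of wild type with DMSO (22 and 20), c or e of wild type with F17 (19 and 22), b or d of nhr-131 with DMSO (20 and 22), or d or e of nhr-131 with F17 (22 each). Among the 57 genes 12 differed, 9 with a smaller and 3 with a larger effect in the mutants, and for the other 45 a difference was not detected.

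The 9 genes with a smaller effect in nhr-131 were called higher there in the test of 10 libraries. In the model of all 20, from which the values below come, the nhr-131 call of ugt-12 was lost (adjusted p = 0.0709). Over all alternatives the nhr-131 calls of ugt-12, nstp-2, C53B4.3 and apy-1 were lost under 10, 9, 9 and 3 of 20. C53B4.3 had a log2 fold change of 0.78 in nhr-131 and 4.34 in wild type, a difference of -3.56 (SE 0.22, adjusted p = 1.03e-08). For apy-1 it was 1.14 in nhr-131 and 3.52 in wild type, a difference of -2.38 (SE 0.24, adjusted p = 1.96e-05). For ugt-12 it was 0.61 in nhr-131 and 2.95 in wild type, a difference of -2.33 (SE 0.20, adjusted p = 2.55e-06). The gap between genotypes was wider than the effect that remained in the mutants in these 3 and in C29F7.1, nstp-2 and ugt-62, 6 of the 9. C29F7.1 stood at 1.24 in nhr-131 and 3.11 in wild type, a difference of -1.87 (SE 0.32, adjusted p = 0.0101). nstp-2 stood at 0.72 in nhr-131 and 2.29 in wild type, a difference of -1.57 (SE 0.17, adjusted p = 6.09e-05), and swt-7 at 1.88 in nhr-131 and 3.19 in wild type, a difference of -1.30 (SE 0.17, adjusted p = 0.000582). In swt-7, gst-5 and ugt-1 the gap was the narrower of the 2. ugt-62 reached 1.498 in nhr-131 and 3.26 in wild type, a difference of -1.76 (SE 0.32, adjusted p = 0.0196). gst-5 reached 2.55 in nhr-131 and 3.90 in wild type, a difference of -1.35 (SE 0.23, adjusted p = 0.0108), and ugt-1 3.88 in nhr-131 and 5.23 in wild type, a difference of -1.35 (SE 0.27, adjusted p = 0.0399). The calls of ugt-1, ugt-62 and gst-5 were lost under 20, 5 and 1 of 29 alternatives.

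The 3 genes with a larger effect in nhr-131 were cyp-35B2, F59B1.8 and E02C12.6. cyp-35B2 had 3.90 in nhr-131 and 1.64 in wild type, a difference of 2.26 (SE 0.37, adjusted p = 0.00707). This difference kept its call under all 29 alternatives. F59B1.8 had 3.68 in nhr-131 and 1.70 in wild type, a difference of 1.98 (SE 0.40, adjusted p = 0.0387) and E02C12.6 had 2.67 in nhr-131 and 0.57 in wild type, a difference of 2.095 (SE 0.43, adjusted p = 0.0422), and these calls were lost under 20 and 21 of 29. For cyp-13A6, cyp-14A4 and cyp-35C1, all with large changes in the mutants, the differences of -0.25 (SE 0.68), 0.97 (SE 0.35) and 0.58 (SE 0.23) were not called (adjusted p = 0.9998).

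**Figure D5:**
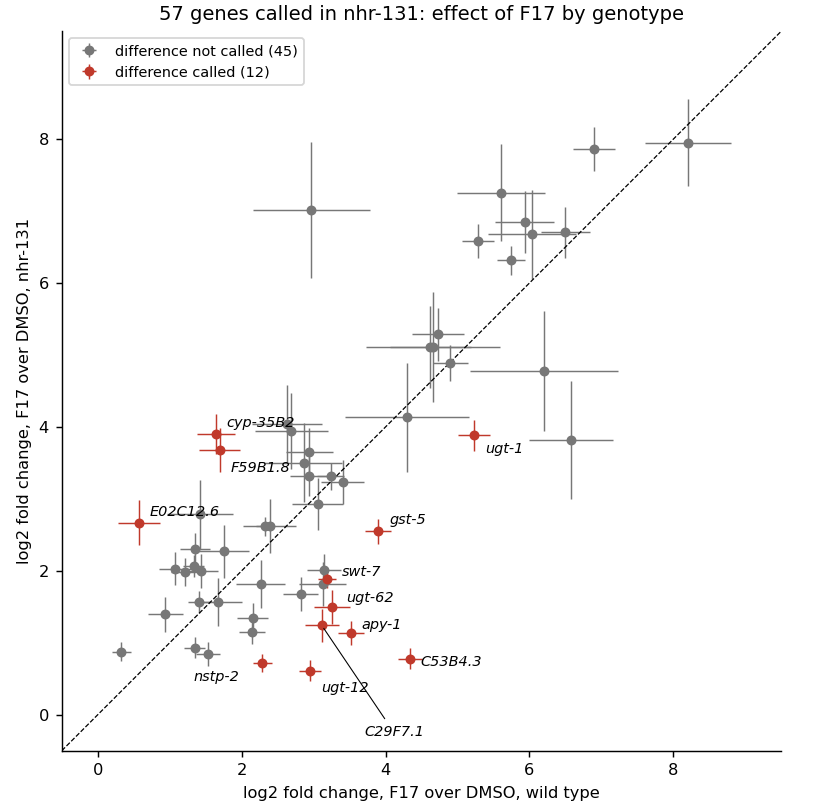
Log2 fold change, F17 over DMSO, of the 57 genes called in nhr-131, in nhr-131 (y) and in wild type (x), both from the model of 20 libraries; bars are SE and the dashed line marks equal effects. Red points are the 12 genes whose difference between genotypes was called, 9 below the line and 3 above it; the other 45 are grey.

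The other 22 genes with a called difference were not called in nhr-131 itself. Of these 19 passed the filter in the mutant libraries, with log2 fold changes from -0.037 to 1.14, and 18 of the 19 were called higher in wild type. That share follows largely from the choice of genes with a called difference and no call in nhr-131. Over all 13795 genes tested for the difference 106 were called higher in wild type. Those of the 19 on a list, named here after their values were seen, were cyp-13A4, cyp-13A5, ugt-20, ugt-19, ugt-26, gst-7 and cdr-4. cyp-13A4 averaged 1.19 ± 0.581 CPM with F17 and 0.716 ± 0.299 CPM with DMSO in the mutants (SD, n = 5), and its difference from wild type was -7.35 (SE 1.11, adjusted p = 0.0029). That difference was -8.06 when library a of wild type with DMSO was left out. ugt-20 averaged 3.99 ± 0.603 CPM with F17 and 3.07 ± 0.825 CPM with DMSO in the mutants, and ugt-19 14.9 ± 1.74 CPM with F17 and 10.9 ± 2.33 CPM with DMSO. In both the 2 treatments overlapped in the mutants, with differences from wild type of -5.79 (SE 0.30) and -4.58 (SE 0.70). gst-7 averaged 104 ± 21.1 CPM with F17 and 82.1 ± 38.8 CPM with DMSO, with a difference of -2.38 (SE 0.43), and cdr-4 39.7 ± 12.9 CPM with F17 and 22.4 ± 4.16 CPM with DMSO, with a difference of -1.59 (SE 0.31). cyp-13A5 averaged 3.69 ± 0.861 CPM with F17 and 2.03 ± 0.449 CPM with DMSO, with a difference of -3.16 (SE 0.65), and its F17 libraries lay above its DMSO libraries although it was not called. The differences of cyp-13A4, ugt-20, ugt-19 and gst-7 kept their calls under all 29 alternatives, and those of cyp-13A5, cdr-4 and ugt-26 were lost under 22, 14 and 2. ugt-26 averaged 68.6 ± 2.33 CPM with F17 and 70.4 ± 8.06 CPM with DMSO, with a log2 fold change of -0.037 in nhr-131 and -0.88 in wild type (adjusted p = 3.61e-05). F17 thus lowered ugt-26 in wild type, and its difference of 0.83 (SE 0.15) is above 0 with the smaller effect in nhr-131.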

How the data were processed

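The deposited values are whole read counts for 28301 genes in 20 libraries. The authors aligned with TopHat2 and counted with HTSeq, per the submitters' processing notes. Not given in the sources used here: versions, genome build, annotation and the strand setting of counting. Coordinates are therefore left out. Libraries were poly(A) selected and directional, per the labels' protocols. Genes were filtered (filterByExpr, minimum count 10), scaled by TMM and tested with edgeR 4.0.16 in R 4.3.3 on the 10 nhr-131 libraries (8 residual degrees of freedom), and over all 20 libraries for the difference between genotypes. DESeq2 1.42.0 and limma 3.58.1 (voom) were alternatives. CPM are TMM-scaled. SE is the absolute log2 fold change over the square root of F. Adjusted p-values are Benjamini-Hochberg values over all genes tested.

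The members and gene lists were chosen with earlier results of these data known. Genes named are nhr-131, every called gene and, from lists without a call, up to 2 members with the highest mean CPM. Other genes were named after their values were seen. Per-library values are given for the 24 called genes with the largest change and a mean log2 CPM of at least 1. The age score and its covariate use a substitute list of 11 genes chosen after the data were seen. The fits were tested on simulated data, and intervals on counts cover counting error only.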

Additional observations from a re-analysis of the deposited data

Results flagged for a closer look

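In each treatment the farthest of the 5 libraries was set against the other 4 by Dixon's test at the 95% level. This was done for the genes named by the rule above, for the age score and for the share of ribosomal RNA. Of 242 such groups 38, all of them of genes, had a library that stood apart, where chance alone gives about 1 in 20. In 32 of the 38 it was library c. The values that follow are for the library that stood apart, with the range of the other 4 in parentheses. Among the called genes library c with F17 was the highest in T25G12.13 at 14.6 CPM (6.87 to 8.21), pgp-9 at 740.3 CPM (217 to 328) and ugt-12 at 95.5 CPM (75.3 to 79.4). It was the lowest in cyp-14A4 at 151 CPM (283 to 299), B0238.1 at 38.4 CPM (64.5 to 75.2) and W01A11.1 at 198 CPM (565 to 678). Library c with DMSO was the highest in cyp-35C1 at 41.1 CPM (23.98 to 26.6), ugt-16 at 34.1 CPM (20.2 to 23.3), cyp-35A4 at 0.293 CPM (0 to 0.077) and T25G12.13 at 1.505 CPM (0.463 to 0.733). It was the lowest in W01A11.1 at 68.5 CPM (113 to 131.4) and C29F7.1 at 6.69 CPM (10.4 to 11.5).

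Other DMSO libraries stood apart in 4 called genes. swt-7 was high in library a at 46.5 CPM (35.3 to 37.6), cyp-33C4 in library b at 4.76 CPM (2.47 to 3.08), F46B3.1 in library d at 0.0387 CPM (0 in the other 4) and K12D9.1 in library e at 0.231 CPM (0 to 0.0661). In every one of these genes the F17 libraries still lay above the DMSO libraries.

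Among named genes that were not called, library c with F17 was the highest in myo-1 at 516 CPM (64.6 to 118), myo-2 at 547 CPM (57.5 to 123), spe-39 at 25.01 CPM (16.9 to 19.1), glh-1 at 358 CPM (60.3 to 105), nlp-24 at 174 CPM (34.7 to 52.9) and pgl-1 at 169 CPM (29.1 to 49.6). It was the lowest in ilys-5 at 411 CPM (924 to 995), spp-5 at 223 CPM (531 to 630.3), wrt-6 at 18.3 CPM (469.6 to 589), dhs-28 at 285 CPM (534 to 594), nhr-114 at 137 CPM (371 to 395), col-73 at 396 CPM (2020.0 to 2225), fat-2 at 477 CPM (789 to 905), acs-5 at 187 CPM (269 to 292) and fat-6 at 389 CPM (1094 to 1157). Library c with DMSO was the highest in myo-1 at 265 CPM (35.5 to 96.7) and myo-2 at 299 CPM (35.8 to 92.2), both myosin genes of the pharynx, and the lowest in acs-1 at 140.2 CPM (343 to 391.8), nlp-40 at 102 CPM (197 to 229) and fmo-4 at 78.0 CPM (146 to 159). Library a with DMSO was the highest in rpl-3 at 7443 CPM (4099 to 4549) and spp-5 at 1433 CPM (269.9 to 593).

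The effect of F17 differed between the genotypes, by a test of the difference itself in edgeR, in 19 genes named in the report. The difference of log2 fold changes, nhr-131 minus wild type, was below 0 in ugt-1 (-1.35), swt-7 (-1.30), gst-5 (-1.35), ugt-62 (-1.76), C29F7.1 (-1.87), apy-1 (-2.38), ugt-12 (-2.33), nstp-2 (-1.57) and C53B4.3 (-3.56). It was also below 0 in cyp-13A4 (-7.35), ugt-20 (-5.79), ugt-19 (-4.58), cyp-13A5 (-3.16), gst-7 (-2.38) and cdr-4 (-1.59). It was above 0 in F59B1.8 (1.98), cyp-35B2 (2.26), E02C12.6 (2.095) and ugt-26 (0.83).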

How the results depend on the processing

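The count of 57 called genes, all higher, was 63 with no filter on low counts, 51 with a strict filter, 58 with either other scaling, 61 with limma-voom, 63 with an age covariate and 66 in a model of all 20 libraries. DESeq2 called 97 genes, 88 higher and 9 lower. The age covariate gave 1 lower call and the model of 20 libraries 1. Without both c libraries 104 were called, 87 higher and 17 lower. Leaving out single libraries gave 49 to 67 calls, 49 to 65 of them higher and 0 to 5 lower. P450 calls were 10 to 15 under all alternatives. The cause of these shifts was not tested.

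Library letters pair the treatments only by name. Deviations from the group means correlated at 0.206, 0.243, 0.799, -0.154 and 0.187 for letters a to e, and of the F17 libraries c alone correlated best with its own letter. With the letter as a replicate block 82 genes were called, 77 higher and 5 lower, of which 55 were among the 57, and cyp-35A1 and gst-8 were lost. The 5 lower genes were F58H1.2, asp-12, cutl-28, dlhd-1 and lys-3, the last at -2.24 (adjusted p = 0.00284 in edgeR with the block).

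The 34 called differences between genotypes (4 above 0 and 30 below, nhr-131 minus wild type) became 20 with the replicate block (2 above, 18 below), 52 with DESeq2 (13 above) and 116 without the 6 libraries called younger (43 above, 73 below). Without a filter on low counts 2 were above 0. Leaving out single libraries gave 19 to 31, with 1 to 5 above and 17 to 26 below. Of the 6 libraries called younger, a and c were wild type with DMSO and a and d wild type with F17. The others were library c of nhr-131 in each treatment. No age score was computed here for the wild-type ones, and leaving out libraries that differ within their group can lower the spread. Depth limits the genes under 1 CPM with DMSO, 13 of the 57. A list with 0 calls is not shown to be unaffected.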
